A study of Mus musculus with 5 samples.

Results

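RNA polymerase II intervals found in Th2 cells lacking PARP-14 and not in wild-type cells were examined. An interval is a stretch of the genome where the program SICER called more RNA polymerase II fragments than in the Input library. A member was an interval of the *Parp14*-/- library that overlapped an interval of the *Parp14*-/- + PJ34 library by at least 1 bp and no interval of the *Parp14*+/+ or *Parp14*+/+ + PJ34 library. Of 10228 *Parp14*-/- intervals, 6977 overlapped a *Parp14*-/- + PJ34 interval, 621 of these had no *Parp14*+/+ interval, and 349 also had no *Parp14*+/+ + PJ34 interval. The 349 members were 3.41% of the *Parp14*-/- intervals and covered 1360800 bp. The mirrored rule, intervals in both *Parp14*+/+ libraries and in neither *Parp14*-/- library, took 1467 of 11692 *Parp14*+/+ intervals, or 12.5%. The members were thus chosen by the interval calls of all 4 libraries, and their presence and absence are a description and no finding.

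The study asked which genes are transcribed in Th2 cells with and without PARP-14 and its enzyme activity. Naive CD4+ T cells from spleens of young adult C57BL/6 *Parp14*+/+ or *Parp14*-/- mice were activated through CD3 and CD28 for 3 days under Th2 conditions, with IL-4 at 10 ng/ml and blocking of IFN-γ, and expanded with IL-2 and IL-4 for 4 days. Each genotype was cultured without and with PJ34, giving 4 groups of 1 library, and a 50:50 mix of the genotypes served as Input. PJ34, an inhibitor of PARP enzymes, was used at 10 µM by the sample labels, a dose that differs from the study's methods. Whether cells of several mice were pooled is not given in the sources used here. With 1 library per condition there is no replicate check and no test between conditions, and an interval called in both *Parp14*-/- libraries was seen under 2 treatments, not in replicates.

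All libraries were reduced to the same number of alignments before calling, and 8841 to 12014 intervals were called in each. Within the *Parp14* gene, wild-type intervals covered 22921 bp untreated and 20880 bp with PJ34, and knockout intervals 2730 bp untreated and 3330 bp with PJ34. Of 6 Th2 markers, 4 to 6 held an interval in each library, and of 5 T cell markers 3 to 5. In the *Parp14*-/- library *Cd4*, *Cd3g*, *Il5* and *Il1rl1* held no interval. Of 5 Th1 markers 3 or 4 and of 6 cytotoxic and NK markers 1 (*Gzma*) held an interval in each library. Of 6 B cell, 6 myeloid and 3 Th17 markers 0 or 1 did, and none of the 3 dendritic or 2 Treg markers did in any library.

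PARP-14 is an ADP-ribosyltransferase that acts with STAT6, the transcription factor switched on by IL-4, and its gene and the neighbouring *Parp9* are themselves interferon-inducible. The antibody recognised RNA polymerase II phosphorylated at serine 2 of its tail, a form that marks elongation through gene bodies. Interferons act through STAT and IRF factors, which bind GAS and ISRE elements before the starts of genes such as the guanylate-binding proteins (GBPs), GTPases of cell-intrinsic defence.

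Sequences under and beside members are shown first, from the mm9 genome, because members fell into different sequence settings. The windows printed were chosen after the motif matches and CpGs of a larger number of windows, before genes with members and around the tallest summits, had been seen, so they are examples and their matches are no count over members. The first set holds the 150 bases before the annotated starts of *Gbp5* at chr3:142159714-142159863 (plus strand), *Gbp7* at chr3:142193152-142193301 (plus strand) and *Isg15* at chr4:155574928-155575077 (minus strand), all inside members. Capitals mark matches on either strand to a STAT motif, TTCNNNGAA, or an IRF motif, GAAANNGAA, each written out from its consensus.
Gbp5: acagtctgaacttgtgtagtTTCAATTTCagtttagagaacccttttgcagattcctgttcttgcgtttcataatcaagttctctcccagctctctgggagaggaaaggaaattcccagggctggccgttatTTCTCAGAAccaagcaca
Gbp7: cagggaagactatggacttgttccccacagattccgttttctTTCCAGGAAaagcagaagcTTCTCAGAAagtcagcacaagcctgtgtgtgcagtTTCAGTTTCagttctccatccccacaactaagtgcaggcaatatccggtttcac
Isg15: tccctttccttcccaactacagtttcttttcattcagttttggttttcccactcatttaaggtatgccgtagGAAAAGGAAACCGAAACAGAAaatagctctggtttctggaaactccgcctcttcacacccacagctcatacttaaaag
The *Gbp5* window held 1 IRF and 1 STAT match, the *Gbp7* window 1 IRF and 2 STAT matches, and the *Isg15* window 3 IRF matches in a row, with 2 overlaps among them. Among 22367 windows of 150 bp before protein-coding genes, 4.19% held the IRF motif, 4.04% the STAT motif and 0.367% both. The same window before *Gbp2* held neither. A match is a description of the letters and not a measured binding site.

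The second set comes from tall members rich in CpG, which the capitals mark. It holds the 150 bases before *Itpr1* at chr6:108162962-108163111 and before *Taf12* at chr4:131830140-131830289, and the 121 bases around the summit inside an intron of *Sulf2* at chr2:165953748-165953868 and of a member outside genes at chr4:133466580-133466700, all on the plus strand.
Itpr1: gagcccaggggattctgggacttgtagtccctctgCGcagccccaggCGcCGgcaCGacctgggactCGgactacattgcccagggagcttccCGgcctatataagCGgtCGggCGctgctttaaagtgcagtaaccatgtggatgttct
Taf12: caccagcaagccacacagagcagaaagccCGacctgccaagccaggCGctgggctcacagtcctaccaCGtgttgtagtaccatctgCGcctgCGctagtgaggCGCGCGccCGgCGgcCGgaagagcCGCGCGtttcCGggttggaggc
Sulf2: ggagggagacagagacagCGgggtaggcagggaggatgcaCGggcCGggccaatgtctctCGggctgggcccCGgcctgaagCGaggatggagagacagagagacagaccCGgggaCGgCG
chr4 member: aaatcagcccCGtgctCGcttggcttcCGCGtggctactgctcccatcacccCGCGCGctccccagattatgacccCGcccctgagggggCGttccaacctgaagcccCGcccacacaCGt
These windows held 9, 15, 9 and 11 CpGs, and the median of the 22367 windows before protein-coding genes was 6 in 150 bp. Another kind is shown by the 121 bases around the summit of another member outside genes, at chr4:102384388-102384508 (plus strand), with 2 CpGs, a GC content of 36.4% and a STAT match in capitals.
chr4 second member: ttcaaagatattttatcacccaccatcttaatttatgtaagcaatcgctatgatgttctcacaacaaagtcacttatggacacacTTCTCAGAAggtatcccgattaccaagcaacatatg

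Members lay less often at the ends of protein-coding genes, and more often outside such genes, than the intervals of either comparison set. Of the 349 members, 76 spanned the start of a protein-coding gene, or 21.8% (95% Wilson interval 17.8 to 26.4%). The share was 11.3% (9.79 to 13.0%) among the 1467 *Parp14*+/+-only intervals and 27.7% (26.6 to 28.8%) among the 6356 *Parp14*-/- intervals that both the *Parp14*-/- + PJ34 and the *Parp14*+/+ library shared. Beside all 10228 *Parp14*-/- intervals, of which 22.3% (21.5 to 23.1%) spanned such a start, the members' share lay within its interval. The same was seen with starts of any annotated gene, which 88 members (25.2%, 20.9 to 30.02%) and 25.9% (25.01 to 26.7%) of all *Parp14*-/- intervals spanned. Including intervals that also span a start, 30 members (8.60%, 6.09 to 12.0%) reached the end of a gene, against 18.2% (16.3 to 20.3%) of *Parp14*+/+-only, 32.8% (31.6 to 34.0%) of shared and 23.8% (23.0 to 24.7%) of all *Parp14*-/- intervals. The widest class, 166 members or 47.6%, lay inside a gene without reaching its start or end, and 87 members or 24.9% (20.7 to 29.7%) lay outside protein-coding genes, against 13.4% (11.8 to 15.3%) of the *Parp14*+/+-only and 11.3% (10.5 to 12.1%) of the shared intervals. Wilson intervals cover counting error only, and intervals of 1 library are not replicates.

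**Figure D1:**
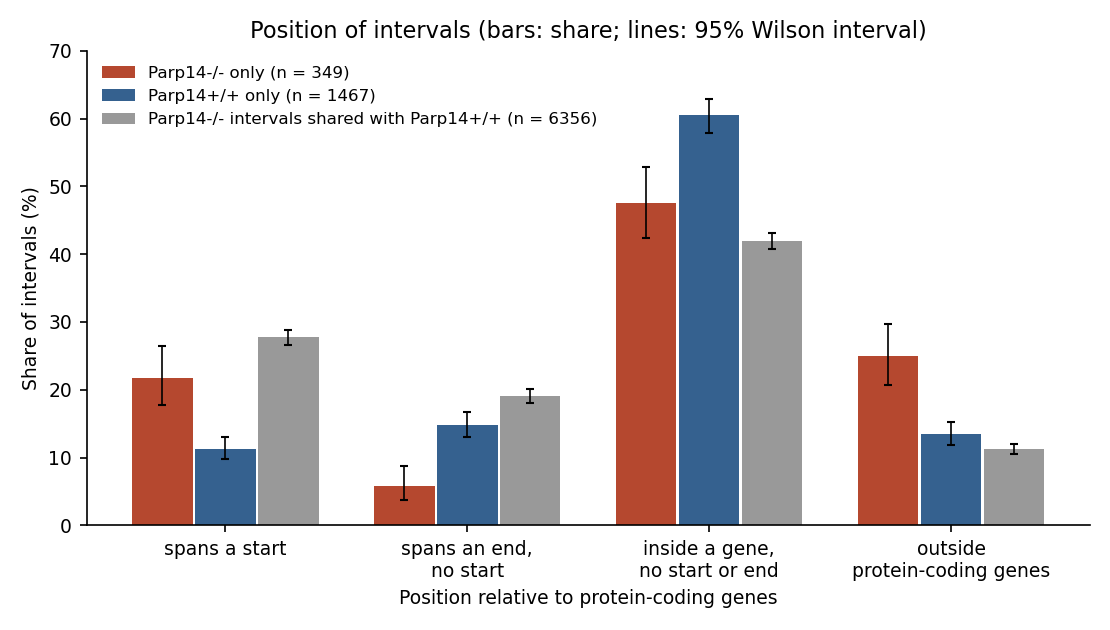
Share of intervals (y axis, %) by their position relative to protein-coding genes (x axis) for members, intervals found only in *Parp14*+/+ and *Parp14*-/- intervals shared with *Parp14*+/+, with 95% Wilson intervals as lines. Members spanned a start in 21.8% of cases, between 11.3% for the mirrored set and 27.7% for the shared set, and stand above both outside protein-coding genes at 24.9%.

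The position was read beside the length, since a longer interval meets more starts and ends. The median length of members was 3450 bp (95% interval 3000 to 3600 bp, range 300 to 16050 bp), against 4200 bp for the *Parp14*+/+-only and 6300 bp for the shared intervals. Thus members spanned a start more often than the longer *Parp14*+/+-only intervals. Members at starts had a median summit height of 12 fragments and a median of 56 CpGs in the 1001 bases around the summit, while those inside genes had 8 fragments and 10 CpGs and those outside protein-coding genes 11 fragments and 10 CpGs. The median GC content of members was 45.5%, beside 44.6% for the *Parp14*+/+-only and 45.2% for the shared intervals.

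A gene under a member was often polymerase-bound in wild-type cells as well. In 199 of 349 members (57.0%), an overlapped gene held a *Parp14*+/+ or *Parp14*+/+ + PJ34 interval elsewhere in its body, 75 overlapped genes with no such interval, and 75 overlapped no annotated gene. Members thus overlapped a gene in 78.5% of cases, beside 87.6% of all *Parp14*-/- and 87.8% of *Parp14*+/+-only intervals. Members in the first class lay a median of 3900 bp from the nearest *Parp14*+/+ or *Parp14*+/+ + PJ34 interval, those in the second 70800 bp, and those outside genes 26100 bp. Of the 273 genes under members, 103 held no interval of either *Parp14*+/+ library, with *Gbp2*, *Gbp5*, *Gbp7*, *Isg15*, *Slfn8*, *Eomes*, *Taf12* and *Usp21* as examples. The rule asks for no wild-type overlap at the member, so this count is partly set by it. The same count over all genes with a *Parp14*-/- interval was not made, and nothing is read from it. Over all members the median distance was 9450 bp, 41 lay within 1000 bp and 51 over 100000 bp away.

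A summit height is the highest number of overlapping fragments in an interval. Members were about as tall as *Parp14*-/- intervals in general, with a median of 9 in both, lower than the shared intervals with 11 and taller than the *Parp14*+/+-only intervals with 7, each in its own library. A height of at least 10 was reached by 46.4% of members (95% Wilson interval 41.3 to 51.7%), 49.3% (48.4 to 50.3%) of all *Parp14*-/-, 62.3% (61.1 to 63.5%) of shared and 16.5% (14.7 to 18.5%) of *Parp14*+/+-only intervals. The median of members was 9 in *Parp14*-/- (range 4 to 38) and 9 in *Parp14*-/- + PJ34 (range 4 to 73), where the tallest overlapping interval was taken. The summit of that interval lay inside the member in 245 of 349 cases, and among these the *Parp14*-/- + PJ34 height reached at most 33. The height of 73 came from a *Parp14*-/- + PJ34 interval at *Tex14* whose summit lay outside the 600 bp member. Of all members 124 were taller, 173 lower and 52 equal with PJ34. The median ratio of the height with PJ34 to that without was 1 for members (95% interval 0.9 to 1) and 0.933 (0.923 to 0.957) for the shared intervals. Among the 245 members that held the *Parp14*-/- + PJ34 summit it was 0.917, with 74 taller, 132 lower and 39 equal with PJ34. The shared intervals were not restricted in this way. A height of at least 10 in both libraries was reached by 107 members and of at least 20 by 4, *Lbh*, *Itpr1*, *Sulf2* and *Hist1h3f*.

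**Figure D2:**
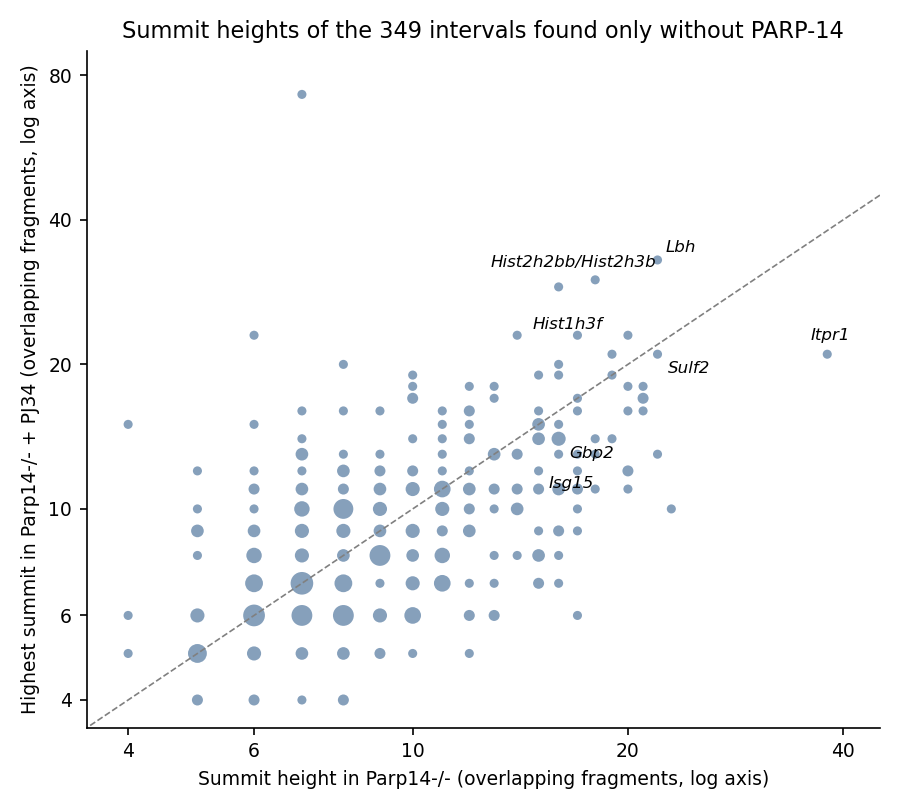
Summit height of each of the 349 members in *Parp14*-/- (x axis, overlapping fragments) against the tallest overlapping summit in *Parp14*-/- + PJ34 (y axis), both on log axes. The dashed line marks equal heights and larger points hold more members. Most members lie below 20 in both libraries, and *Lbh*, *Itpr1*, *Sulf2* and *Hist1h3f* reach 20 in both.

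The 20 members with the highest lower value of both libraries reached 15 to 22. In 12 of them the summit lay within 500 bp of a protein-coding start, 5 overlapped no annotated gene, and the *Parp14*-/- + PJ34 summit lay inside all 20. They held a median of 52 CpGs in the 1001 bases around the summit, beside 12 over all members. The heights in the next sentences are given for *Parp14*-/- first and *Parp14*-/- + PJ34 second. Throughout, a member's *Parp14*-/- + PJ34 height is that of the tallest overlapping interval, also where its summit lay outside the member.

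*Lbh*, a transcription cofactor, held a member of 3450 bp at chr17:73266451-73269900 with heights of 22 and 33 and its summit in a UTR, 19 bp after the start. *Itpr1*, the calcium channel of the endoplasmic reticulum opened by inositol trisphosphate, held a member at chr6:108162751-108164850 with heights of 38 and 21, its summit 40 bp before the start. The *Sulf2* member, in an intron of this sulfatase of heparan sulfate, was a 300 bp interval at chr2:165953701-165954000 with heights of 22 and 21. *Lbh*, *Itpr1* and *Sulf2* held wild-type intervals elsewhere in the gene, so here the members added a stretch to a gene that was also called in *Parp14*+/+ cells.

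Further members lay at gene starts. *Taf12*, a TFIID subunit, had heights of 21 and 17 at chr4:131828551-131830950. *Taf4b*, another TFIID subunit, had 16 and 29 on chromosome 18. *Ncbp2*, the small subunit of the cap-binding complex, had 20 and 16 in a member that also overlaps *0610012G03Rik*. *Gpbp1*, which binds GC-rich promoters, had 19 and 19.

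Other tall members overlapped *Mitd1* and *Mrpl30*, neighbours of which the second encodes a mitochondrial ribosomal protein, with heights of 20 and 18. *Usp21*, a deubiquitinase, had 16 and 20 in a member of 600 bp. *H2-Q4*, an MHC class Ib gene, had 17 and 23 in a member that also overlaps *Gm11131*, the member at *Gm11998* had 17 and 17, and that at *AC157822.1* had 21 and 16. The study kept uniquely mapped alignments, so reads that fit both *H2-Q4* and a near-identical relative would not be counted. Heights there may be incomplete, and the same holds for the histone genes. The 5 tall members outside annotated genes had heights of 19 and 21 (chr4:133465501-133467300), 21 and 18 (chr14:76233001-76236450), 21 and 17 (chr10:9904051-9910200), 17 and 16 (chr4:102383851-102385500) and 16 and 19 (chromosome 18, with its summit 4893 bp before *Egr1*). The nearest protein-coding gene lay 148915 bp from the summit of the chr10 member.

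Replication-dependent histone genes, which are transcribed in S phase, held 2 tall members. *Hist1h3f*, a histone H3 gene, held a member of 600 bp at chr13:23636251-23636850 with heights of 20 and 23. *Hist2h2bb* and *Hist2h3b*, histone H2B and H3 genes with neighbouring starts, shared a member at chr3:96072301-96074250 with heights of 18 and 30. Of 24 annotated histone genes with a *Parp14*-/- interval these 3 held a member and 0 held a *Parp14*+/+-only interval. Over all annotated genes with a *Parp14*+/+ interval 15.3% held a *Parp14*+/+-only one, and how many histone genes had a *Parp14*+/+ interval was not counted. The histone genes were singled out after the values of 6 gene families were seen: 4 of 23 *Usp* genes with a *Parp14*-/- interval held a member, 1 of 58 *Zfp* genes, 1 of 56 microRNA genes, and 0 of 165 small nucleolar RNA and 0 of 76 ribosomal protein genes, beside 4.31% of all 6332 annotated genes with such an interval. A family count of this size is a description.

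The 5 longest members were 10950 to 16050 bp long. *Atp11b*, a subunit of a phospholipid flippase, held the longest at 16050 bp (chr3:35650801-35666850), spanning the start, with heights of 19 and 14. *Gtf2f2*, a subunit of the initiation factor TFIIF, held 13050 bp with heights of 10 and 6. *Smad3*, a signal transducer of TGF-β, held 11550 bp with 17 and 9, *Mamdc2* 11400 bp with 12 and 9, and *Gbp2* 10950 bp with 16 and 13. All of these were taller without PJ34.

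Where no wild-type interval was called, fragments of the wild-type libraries were still counted. The deposited gene table gives, for every gene and library, the highest point of its active regions, where an active region merges overlapping intervals of all libraries in that table. For genes with 1 active region this gives the *Parp14*+/+ height in the region of a member, which was readable for 67 members. The *Parp14*+/+ value was 2 to 38 with a median of 9, and it was 0 in none of the 67. For 50 of the 67 the highest *Parp14*-/- point of the region was the member's own summit, and these 50, a subset defined after the values of all 67 were seen, are described in most detail. The region was often longer than the member, so the *Parp14*+/+ maximum can lie outside the member and, where a wild-type interval falls in the region, inside that interval. For 39 of the 67 members the nearest wild-type interval was at least as far away as the region is long, so that the region can hold none, a subset defined after the values were seen. In these the *Parp14*+/+ height was 2 to 18 with a median of 8, beside a median of 12 in *Parp14*-/-, and the *Parp14*+/+ + PJ34 height was 4 to 21.

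Among these 50 the median height was 8 in *Parp14*+/+ and 11.5 in *Parp14*-/-, and the wild-type height was a median of 0.69 times the knockout height (95% interval 0.583 to 0.857). The ratio was below 0.7, the limit used in the study, in 27 of 50 (54%), where 17.9% of all such regions of *Parp14*-/- intervals were below it. In the PJ34-treated pair the median ratio was 0.76 (0.667 to 1) and 19 of 50 (38%) were below 0.7, beside 9.86% of all. Both *Parp14*-/- heights exceeded both *Parp14*+/+ heights in 24 of 50 (48%), beside 16% of all. The *Parp14*+/+ height equalled or exceeded the *Parp14*-/- height in 13 of 50 untreated and 18 of 50 treated. Over all 67 members with a readable region, 32 were below 0.7 untreated (median ratio 0.71) and 20 treated (0.87), beside 15.1% and 8.18% of all regions of *Parp14*-/- intervals, and 28 had both *Parp14*-/- heights above both *Parp14*+/+ heights, beside 14.8%. These shares rest on the libraries that chose the members, so nothing is read from them beyond the sizes.

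**Figure D3:**
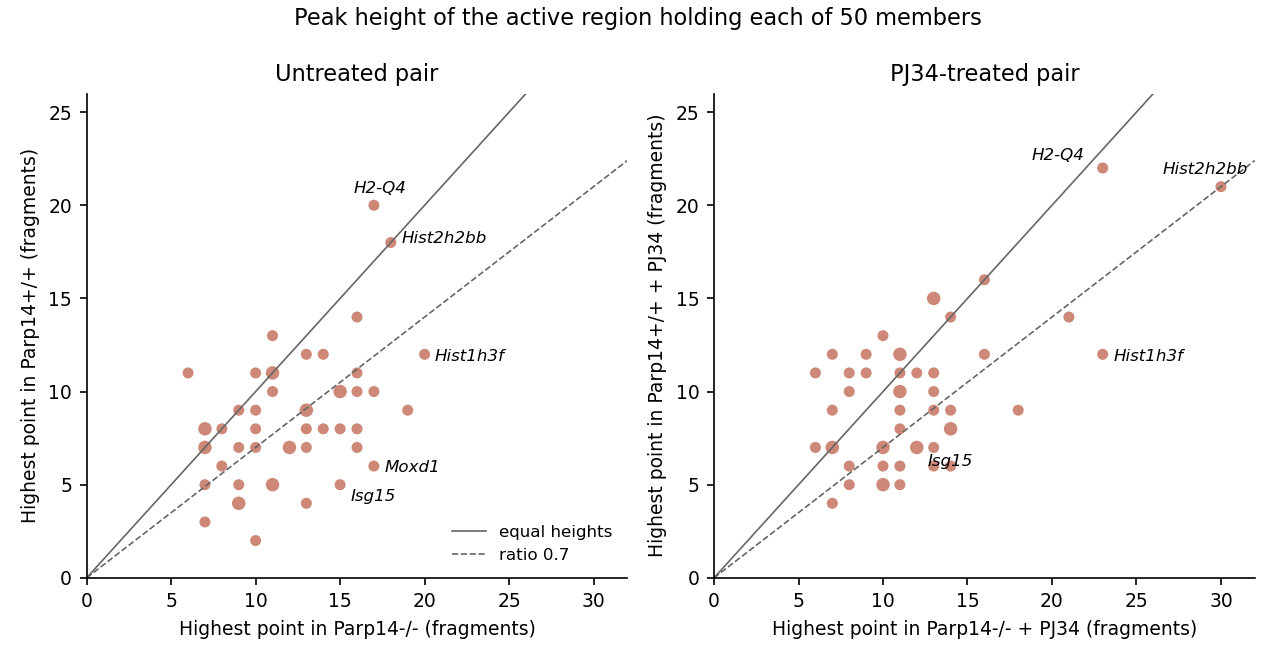
Highest point of the active region holding each of 50 members, in *Parp14*+/+ (y axis, fragments) against *Parp14*-/- (x axis), untreated on the left and with PJ34 on the right. The solid line marks equal heights and the dashed line a ratio of 0.7. In the untreated pair 27 points lie below the dashed line and *H2-Q4* lies above the solid one.

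The regions that stood lowest in *Parp14*+/+ against *Parp14*-/- included *Isg15*. Heights are given for wild-type cells untreated and with PJ34, then for knockout cells untreated and with PJ34. The *Isg15* region reached 5, 7, 15 and 12 fragments, so both *Parp14*-/- values stood above both *Parp14*+/+ values. The *Hist1h3f* region reached 12, 12, 20 and 23 and the chr4:133465501-133467300 region 9, 14, 19 and 21, again with no overlap of the genotypes. The *Hist2h2bb* and *Hist2h3b* region reached 18, 21, 18 and 30, with equal heights in the untreated pair. The *H2-Q4* region reached 20, 22, 17 and 23 and was higher in *Parp14*+/+ than in *Parp14*-/- cells in the untreated pair, but it spans 9300 bp and a *Parp14*+/+ or *Parp14*+/+ + PJ34 interval lay 450 bp from the member of 1650 bp, so these values can come from outside the member. The *Gbp2* region reached 11, 15, 16 and 13.

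Other readable regions, chosen after their values were seen, were those of *Moxd1* with 6, 5, 17 and 11, *Myo3b* with 7, 9, 16 and 14, *Selp* (P-selectin) with 8, 6, 15 and 14, and *Trim21*, an antibody receptor and ubiquitin ligase, with 5, 7, 11 and 10. In all 4 both *Parp14*-/- heights exceeded both *Parp14*+/+ heights. The lowest ratio, 0.2, was at *2510009E07Rik* with 2, 6, 10 and 11, and the highest, 1.83, at *1110032F04Rik* with 11, 10, 6 and 8.

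By gene, 272 genes of the deposited table listed a member. The *Parp14*+/+ to *Parp14*-/- ratio of their average peak height, the mean of the highest points of a gene's active regions, was below 0.7 in 86 (31.6%), beside 13.5% of 11562 genes. With PJ34 it was below 0.7 in 39 (14.3%), beside 8.18% of 11572 genes. Since the treated ratio had a median of 1.13 over all genes, scaling it to 1 gave 73 genes under members, beside 14% of all. In the same library order *Lbh* averaged 10, 8.5, 15 and 19.5, giving ratios of 0.667 untreated and 0.436 treated. *Itpr1*, with 11 active regions, averaged 9.82, 9.27, 11.27 and 8.91, and the *Parp14*+/+ height at its member cannot be read from these averages. *Taf12* averaged 7, 9, 13.5 and 9, and was higher without PARP-14 in the untreated pair alone. Gene labels of the table were not used for names. Of 71 genes under members with a RefSeq accession and no interval of either *Parp14*+/+ library, 71 carried a label that was no symbol or synonym of that gene.

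Interferon-induced genes gave the highest count of genes under members, in the list with the most genes holding a *Parp14*-/- interval, and by share they stood below the naive and memory T cell list (20.6% against 23.1%). Of 59 annotated genes of that list, 34 held a *Parp14*-/- interval and 7 of these a member (20.6%), beside 4.31% of the 6332 annotated genes with a *Parp14*-/- interval. The 7 were *Gbp2*, *Gbp5*, *Gbp7*, *Isg15*, *Parp9*, *Slfn8* and *Zbp1*, under 10 members. Of the 26 list genes with a *Parp14*+/+ interval 0 held a *Parp14*+/+-only interval, beside 15.3% of the 7474 annotated genes with a *Parp14*+/+ interval. In wild-type cells 26 list genes held an interval untreated and 28 with PJ34, and in knockout cells 34 and 40. In the deposited table the *Parp14*+/+ to *Parp14*-/- ratio was below 0.7 in 29 of the 43 rows of these genes named by accession, beside 12.9% of all such rows. Most of these low ratios came from genes without a member. Counted by gene, 30 of 44 were below 0.7, and of these 30, 3 held a member and 21 an interval of a *Parp14*+/+ library. The reverse ratio was below 0.7 in 0 of 43, beside 1269 of all 9843 such rows. With PJ34 the counts were 9 and 3 of 43, beside 7.76% of all for the first and 2119 of 9843 for the second. These rows are not all independent: *Psmb8*, *Psmb9* and *Tap1* had the same values, as did *Gbp1* and *Gbp2*, and *Ifi27* and *Ifi27l2a*. Among the 7 genes with a member, *Gbp2*, *Gbp5* and *Gbp7* lie close together. Some rows were very low, such as *Oasl2* with 1 in *Parp14*+/+ and 2 in *Parp14*-/-. The list was drawn up with earlier results of these data known. Low untreated ratios were not particular to it. They were below 0.7 in 10 of 17 rows of the Th1 list and 9 of 30 of the immediate early list, and the reverse ratio in 2 and 1. With PJ34 the counts were 3 of 17 and 7 of 30, and 1 and 2 for the reverse ratio.

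The *Gbp* genes of chromosome 3 held 5 members within 144150 bp, and no interval of either *Parp14*+/+ library was called from *Gbp5* to *Gbp2*. The *Gbp7* member at the start, chr3:142190551-142196250, had heights of 16 and 15, and a second one at the gene's end, chr3:142212601-142213950, had 9 and 11. The *Gbp5* member, chr3:142158751-142163100, had 11 and 10, with its summit 152 bp after the start. *Gbp2* held a member at its start, chr3:142282201-142293150, with 16 and 13, and another at its end, chr3:142299001-142302900, with 7 and 13. Both *Gbp2* members lay under 1 *Parp14*-/- + PJ34 interval, and the 13 is the height of that interval in both cases. *Gbp7* averaged 5.5, 8, 12.5 and 13 fragments over 2 regions in the order of libraries used above, with no overlap of the genotypes. *Gbp5* averaged 7, 7, 10 and 7, so the *Parp14*-/- + PJ34 value equalled the *Parp14*+/+ values.

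**Figure D4:**
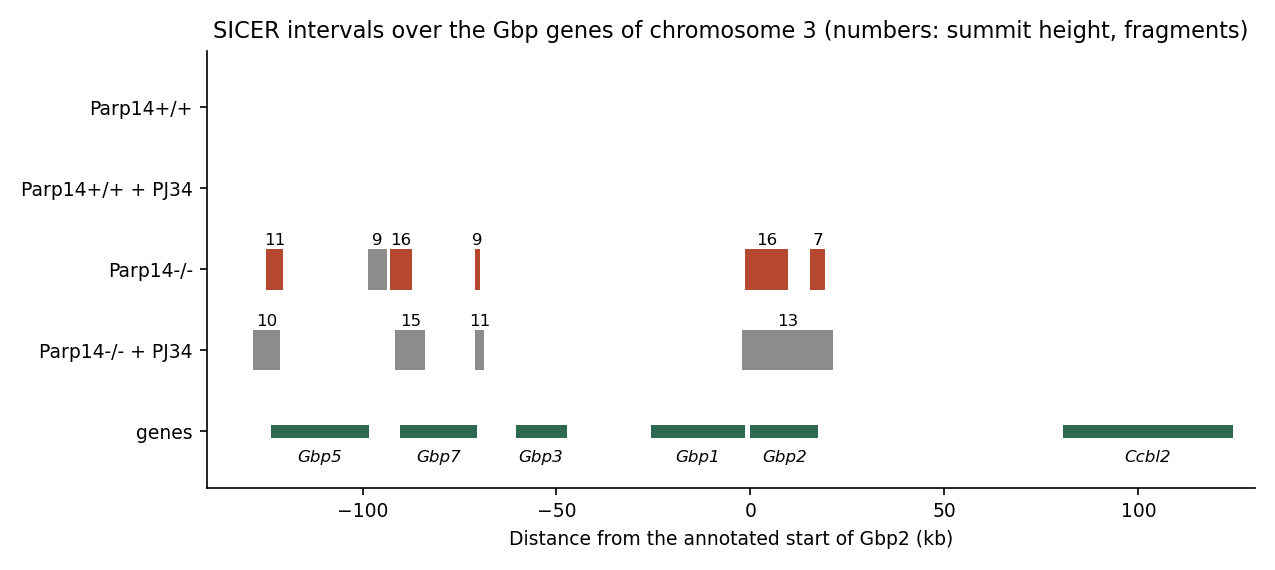
SICER intervals of the 4 libraries over the *Gbp* genes of chromosome 3, by distance from the start of *Gbp2* (x axis, kb), with summit heights in fragments above them. Red intervals are members, grey ones are *Parp14*-/- + PJ34 intervals or a *Parp14*-/- interval that no *Parp14*-/- + PJ34 interval overlaps, and both *Parp14*+/+ rows are empty.

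Members also lay at interferon-induced genes of other chromosomes. *Isg15*, a ubiquitin-like protein attached to other proteins, lay at the start side of a 4800 bp member, chr4:155571451-155576250, which also overlaps *Agrn*, with heights of 15 and 12. *Slfn8*, of the Schlafen family, held members with heights of 10 and 7 and of 8 and 7, the last from a summit outside the member. *Zbp1*, a sensor of Z-form nucleic acid, held a member with 7 and 8, and *Parp9*, a PARP family member next to *Parp14*, one with 7 and 6 at chr16:35962951-35970600. Both lay in genes with a *Parp14*+/+ interval elsewhere. *Gbp9* on chromosome 5 is outside the list and was named after its values were seen: it held 4 members with heights of 9 to 12 in *Parp14*-/- and 5 to 9 in *Parp14*-/- + PJ34, in a gene that averaged 16, 22.75, 31.75 and 29.25 fragments.

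Genes of naive and memory T cells were the other list with several members, 3 of the 13 genes with a *Parp14*-/- interval. *Bach2*, a repressor that restrains effector differentiation, held 5 members with heights of 8 to 18 in *Parp14*-/- and 10 to 12 in *Parp14*-/- + PJ34. At chr4:32516401-32519250 and chr4:32519851-32525550 the 12 came from a summit outside the member. *Foxp1*, a factor of T cell quiescence, held 1 shared with *Eif4e3* with 9 and 12. Since *Bach2* is 1 gene, its members are not independent.

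The remaining lists held few members or none. *Bcl2*, the survival factor, was the 1 gene of 12 in the SOCS and PIM list and held 3 members, with heights of 10 and 17, 11 and 8, and 11 and 8. The 17, and the 8 of the member at chr1:108444151-108447450, came from summits outside the member. *Eomes*, a T-box factor of Th1 and cytotoxic cells, was 1 of 15 in the Th1 list, with 7 and 7, the second from a summit outside the member. *Pparg*, a nuclear receptor used by Th2 cells, was 1 of 15 in the Th2 list, with 5 and 5, the second from a summit outside the member. *Pparg* also held a *Parp14*+/+-only interval. *Sulf2* was 1 of 10 among p53 targets, and *Parp9* 1 of 11 in the PARP family. No member lay on the lists of T cell (9 genes with a *Parp14*-/- interval), Th17, Treg and Tfh (6), cytotoxic and NK (5), B cell (0), myeloid (2), immediate early (31), cytokine and receptor (30), amino acid and ER stress (10), heat shock (9), glycolysis and hypoxia (17), sterol synthesis (9) or cell cycle (10) genes.

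**Figure D5:**
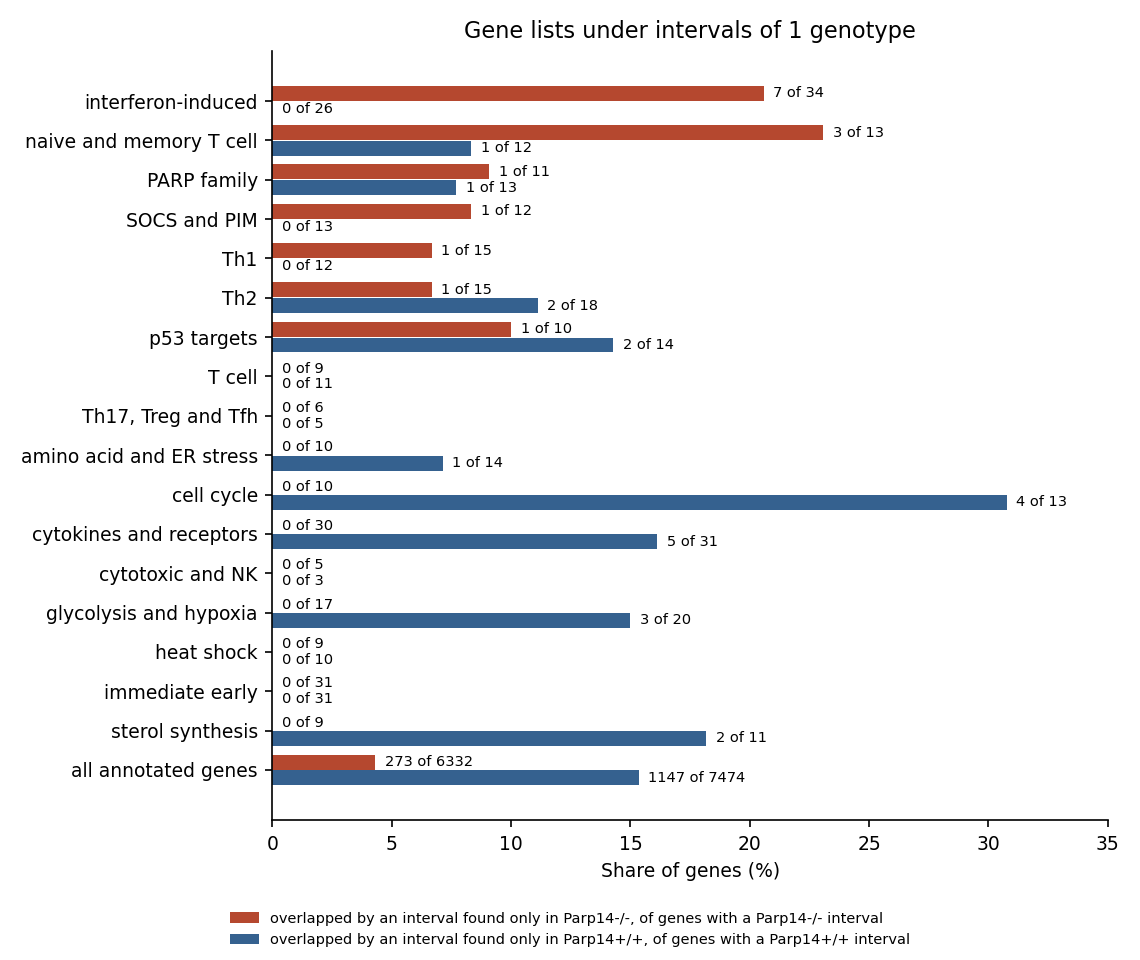
Share of the genes of each list (x axis, %) overlapped by a member, of genes with a *Parp14*-/- interval, and by a *Parp14*+/+-only interval, of genes with a *Parp14*+/+ interval, with counts at the bars. The B cell and myeloid lists, with 0 and 2 genes with a *Parp14*-/- interval, are left out. Interferon-induced genes stand at 7 of 34 for members and 0 of 26 for the mirrored set, and cell cycle genes at 0 of 10 and 4 of 13. All annotated genes stand at 4.31% and 15.3%.

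Members were spread over all chromosomes with a *Parp14*-/- interval and formed small groups. The share of *Parp14*-/- intervals that were members ran from 1.51% on chromosome X to 5.60% on chromosome 12. Within 10 Mb of *Parp14* it was 4 of 70, or 5.71% (95% Wilson interval 2.24 to 13.8%), and in the same stretch 24 of 123 *Parp14*+/+ intervals, or 19.5% (13.5 to 27.4%), were *Parp14*+/+-only, beside 12.5% overall. In all, 104 members had another member within 200000 bp, in 43 groups, and 245 had none. Groups of 5 lay at the chromosome 3 *Gbp* genes, at *Bach2* and at *Trerf1*, where heights were 6 to 12 in *Parp14*-/- and 5 to 10 in *Parp14*-/- + PJ34.

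Sequence motifs were counted in the 1001 bases around each summit. The STAT motif TTCNNNGAA was found in 120 members, or 34.4% (95% Wilson interval 29.6 to 39.5%), above the 26.7% (24.5 to 29.0%) of *Parp14*+/+-only and the 26.4% (25.3 to 27.5%) of shared intervals, and 27.5% (26.7 to 28.4%) of all *Parp14*-/- intervals held it. With 100 bp on each side of the summit the STAT shares were 8.31% (5.85 to 11.7%), 4.77% (3.79 to 5.99%) and 5.49% (4.96 to 6.08%), whose ranges overlap. The RUNX motif TGTGGT was found in 47.3% (42.1 to 52.5%) of members, below 57.2% (54.6 to 59.7%) and 55.6% (54.3 to 56.8%), and below 56.3% (55.3 to 57.3%) of all *Parp14*-/- intervals. With 100 bp on each side the RUNX shares were 13.5% (10.3 to 17.4%), 16.2% (14.4 to 18.2%) and 16.3% (15.4 to 17.2%), whose ranges overlap. The AP-1 motif TGANTCA was found in 32.7% (28.0 to 37.8%), beside 29.2% and 27.4%. The GATA motif AGATAA was found in 37.2%, beside 42.6% and 40.1%, the IRF motif GAAANNGAA in 30.4%, beside 27.9% and 27.5%, and the T-box motif AGGTGTGA in 4.01%, beside 4.84% and 4.48%. The 6 motifs were searched on both strands, they can overlap each other, and no test was run.

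At the limit of the rule, 5 members touched a *Parp14*+/+ or *Parp14*+/+ + PJ34 interval end to end with no base between. They lay in *Nudt4* with heights of 7 and 7, in *Rai14* with 8 and 6, in *Mapk8ip1* and *1700029I15Rik* with 7 and 6, and outside genes at chr13:30347851-30349050 with 8 and 5 and at chr5:149213101-149216100 with 6 and 23. Just outside the rule, 14 intervals shared 1 window of 150 bp with a wild-type interval. Of these tied intervals, 3 are given as examples, in *Utp20* with heights of 6 and 5, in *Luc7l3* with 7 and 6, and at chr13:113253301-113259300 with 8 and 11.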

How the data were processed

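RNA polymerase II phosphoserine 2 ChIP-Seq was analysed in 4 Th2 cell libraries, 1 per condition, with groups taken from the sample labels. ELAND was used by the authors for alignment to mm9, duplicates were dropped, libraries were cut to equal alignment numbers, and SICER called intervals against Input. The authors deposited each library's intervals and summits, and a table of genes whose signal is an average peak height. Its 8 columns for other libraries, and the 8 tracks of those libraries, were not used here, although active regions were merged over them.

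Intervals were compared by overlaps of 1 bp with pandas 2.3.3 and NumPy in Python, and genes, introns and starts were taken from GENCODE M1 on NCBIM37, the assembly of mm9. The overlap rule was tested on simulated data. Gene names followed coordinates, or RefSeq accessions (GRCm38.p6, names alone) for the gene table, where 9848 of 11608 rows matched. Active region values equalled the highest *Parp14*-/- summit in 3199 of 3339 cases. Shares carry 95% Wilson intervals and medians order-statistic intervals, both for counting error only. No p-value was computed. Genes were named for the 20 highest and 5 longest members and where a member overlapped a listed gene, except 1 listed gene that is not reported here. Members and gene lists were chosen with earlier results of these data known, and the printed windows, the gene families and the subset of 50 active regions were chosen after their values were seen. The alternatives varied overlap, distance, height, annotation, ratio limit, scaling and window.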

Additional observations from a re-analysis of the deposited data

Results flagged for a closer look

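In 2 named members the *Parp14*-/- minus *Parp14*+/+ difference of the region height had opposite signs in the untreated and the PJ34-treated pair. With 1 library per condition this difference between pairs was not tested. At *H2-Q4* it was -3 fragments untreated and 1 fragment with PJ34, in a region of 9300 bp whose member lay 450 bp from a wild-type interval. At *Gbp2* it was 5 fragments untreated and -2 fragments with PJ34.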

How the results depend on the processing

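The number of members, 349, stayed within 1.5 times when 50% of the interval had to be covered, when under 10% wild-type cover was allowed and when intervals of *Parp14*-/- + PJ34 were counted. It was 210 with no *Parp14*+/+ or *Parp14*+/+ + PJ34 interval within 5000 bp, 107 with a height of at least 10 in both libraries (median height 14) and 1428 when no *Parp14*-/- + PJ34 interval was required (median length 2250 bp). The share overlapping a gene, 78.5%, was 71.9% with the deposited gene table and 88.3% with 10000 bp added on both sides of genes. Over all *Parp14*-/- intervals these shares were 87.6%, 83.1% and 95.4%, and over *Parp14*+/+-only intervals 87.8%, 83.5% and 96.5%. At a limit of 0.5, 22 of 272 genes under members were below it untreated and 5 of 272 treated, beside 2.51% and 1.77% of all genes. The treated share was thus near that of all genes. With a value of at least 10 in either library, 54 genes under members were below 0.7 untreated, beside 14.7% of all genes filtered alike. With the treated pair, where the median ratio of all genes was 1.13, scaled to a median of 1, the treated count was 73, beside 14% of all genes. With 100 bp on each side of the summit motif shares cannot rise, since that window lies inside the longer one. The STAT share was 8.31% (5.85 to 11.7%), beside 5.49% (4.96 to 6.08%) of shared and 4.77% (3.79 to 5.99%) of *Parp14*+/+-only intervals. In the same order GATA stood at 6.88% beside 9.63% and 10.3%, and T-box at 1.15% beside 1.02% and 0.818%. RUNX stood at 13.5% beside 16.3% and 16.2%, AP-1 at 8.31% beside 6.97% and 8.11%, and IRF at 6.59% beside 6.09% and 5.86%. No paired analysis was possible because each condition has 1 library. Low heights limit all of these values, and replicates could not be left out.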
